A study of Mus musculus with 10 samples.

Results

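Short-chain fatty acid (SCFA) sensing and uptake genes were examined in colonic intestinal epithelial cells (IECs) of mice with and without the small GTPase RhoB. The set held 7 genes chosen by function, of the 55487 genes in the table: the receptors Ffar2, Ffar3 and Hcar2, the transporters Slc5a8, Slc16a1 and Slc16a3, and Bsg, the partner protein of the last pair. RNA of IECs released from the colon was sequenced from 5 WT and 5 RhoB-/- mice, with 1 library per label and no treatment named. All mice were on the C57BL/6J background and, per the study's methods, aged 6 to 8 weeks unless stated otherwise. RhoB-/- mice lack both copies of the gene in every tissue, and the WT males were purchased from another institution than the center that made the knockout line. Whether the sequenced WT mice were purchased or littermates is not stated, and where they were purchased, breeding source and genotype cannot be told apart. Nothing in the labels names separate cultures or pools, so p-values measure the spread between these libraries.

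SCFAs, mainly acetate, propionate and butyrate, are made by colonic bacteria from fibre, and butyrate is the main fuel of colonocytes. Ffar2 (GPR43) and Ffar3 (GPR41) are G protein-coupled receptors for SCFAs that are best known in enteroendocrine cells and, for Ffar2, in leukocytes, while Hcar2 (GPR109A) responds to butyrate, niacin and the ketone body beta-hydroxybutyrate. Slc5a8 (SMCT1) takes up SCFAs together with sodium at the luminal face of colonocytes, Slc16a1 (MCT1) carries SCFAs and lactate with protons, and Slc16a3 (MCT4) is best known for lactate export from glycolytic cells. Basigin, the product of Bsg, escorts MCT1 and MCT4 to the plasma membrane.

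The values were in TPM, the relative abundance of transcripts corrected for their length, which allows genes to be compared within a library but keeps no sequencing depth. Genes averaging 1 TPM or more over the 10 libraries, 12870 in all, were fitted on the log2(TPM + 1) scale by limma with an intensity trend, and a gene was said to rise or fall at a Benjamini-Hochberg adjusted p below 0.05. Over all tested genes 995 (7.73%) rose in RhoB-/- IECs and 1734 (13.5%) fell, the groups did not overlap for 1868 (14.5%), and the median log2 fold change was -0.13. Centring each library on its median turned these counts to 2004 and 1608, and leaving out mitochondrial genes to 1076 and 3648. Rhob itself averaged 312 ± 85.5 TPM (SD, n = 5) in the WT group but lay between 0.09 and 0.57 TPM in RhoB-/- replicates 1 to 4. The library labelled RhoB-/- replicate 5 held 111 TPM of Rhob, which goes against its label, so each member is also given without it. Genes with a TPM above 0 numbered 20394 to 21344 per WT library and 20261 to 20594 per RhoB-/- library, and mitochondrial genes took 17.5% to 26.5% and 10.3% to 22.4% of the TPM.

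In RhoB-/- IECs the receptor transcript Ffar2 and the sodium-coupled transporter Slc5a8 fell, and the lactate exporter Slc16a3 rose. Slc16a1 and Bsg did not pass the test, and Ffar3 and Hcar2 were near the lower end of detection in both genotypes. Of the 5 members tested, 1 rose, where 7.73% of all tested genes rose, and 2 fell, where 13.5% fell. The genotypes did not overlap for 3 of the 5, where 14.5% of the tested genes did not. Without RhoB-/- replicate 5, 1 member rose and 2 fell, and the calls were on Slc16a3, Ffar2 and Slc5a8 again.

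**Figure D1:**
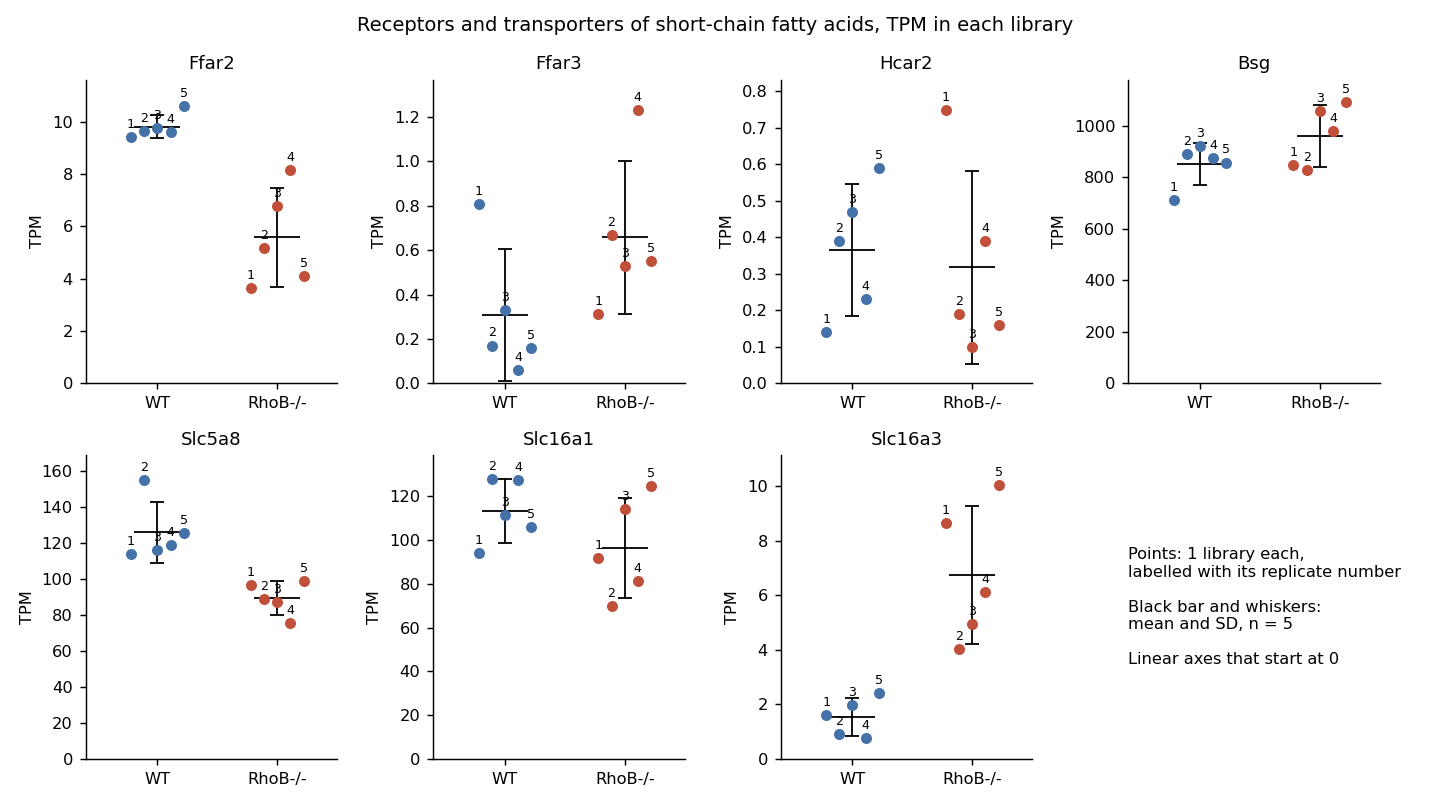
Level of each of the 7 genes in TPM (linear axes from 0) in 5 WT and 5 RhoB-/- libraries, with points for libraries labelled by replicate number and bars for mean and SD (n = 5). The WT points of Ffar2 and Slc5a8 lie above all RhoB-/- points, those of Slc16a3 lie below, and the genotypes overlap for the other genes.

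The sequences ahead of the start sites of the 3 genes that changed were compared, with that of Ffar3 as the neighbour of Ffar2, since they allow the members to be compared on more than their levels. The windows hold the 250 bases before the RefSeq start site, written 5′ to 3′ on the gene's strand, and capitals mark ACGTG or its reverse complement CACGT, the core of the hypoxia response element. RefSeq promoter entries on GRCm38.p6 matched 5 of the 7 members, and none was matched for Hcar2 and Bsg. Ffar2 had several such windows, of which the window at the outermost start is given, and the other 3 held no match.
Ffar2, chr7:30823776-30824025, minus strand: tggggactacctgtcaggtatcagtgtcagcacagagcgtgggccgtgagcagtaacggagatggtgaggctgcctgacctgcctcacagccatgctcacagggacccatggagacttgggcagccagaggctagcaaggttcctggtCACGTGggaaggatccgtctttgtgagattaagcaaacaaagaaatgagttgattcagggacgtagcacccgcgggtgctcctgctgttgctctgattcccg
Ffar3, chr7:30856179-30856428, minus strand: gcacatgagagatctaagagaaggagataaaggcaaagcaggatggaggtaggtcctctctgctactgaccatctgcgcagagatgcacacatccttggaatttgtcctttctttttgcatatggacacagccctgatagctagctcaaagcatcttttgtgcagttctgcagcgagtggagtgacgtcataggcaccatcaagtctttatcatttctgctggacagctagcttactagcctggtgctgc
Slc5a8, chr10:88885742-88885991, plus strand: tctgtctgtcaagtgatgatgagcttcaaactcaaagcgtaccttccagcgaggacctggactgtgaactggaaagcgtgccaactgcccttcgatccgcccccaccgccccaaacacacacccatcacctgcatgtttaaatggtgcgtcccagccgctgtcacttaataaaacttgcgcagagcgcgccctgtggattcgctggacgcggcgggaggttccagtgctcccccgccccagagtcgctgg
Slc16a3, chr11:120948817-120949066, plus strand: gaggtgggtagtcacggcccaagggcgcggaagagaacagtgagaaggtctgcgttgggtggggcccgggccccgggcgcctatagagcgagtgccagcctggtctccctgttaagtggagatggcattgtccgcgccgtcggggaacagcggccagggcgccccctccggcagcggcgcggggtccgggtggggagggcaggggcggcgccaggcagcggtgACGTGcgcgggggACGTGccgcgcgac
The Slc16a3 window held 2 separate matches on the plus strand close to the RefSeq start, and an annotated Slc16a3 exon covers 14 of its bases. That start lies 587 bases inside the gene as annotated by GENCODE, so the window lies within the annotated gene. Ffar2 held the palindrome CACGTG, the E-box form, in which the motif is read once on each strand, and the window of Slc16a1 held the same palindrome. Ffar3 and Slc5a8 held no match. Of the 32851 promoter windows of this length in the table, 16.6% held at least 1 match, so the letters are common and mark no binding site by themselves.

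Ffar2 (ENSMUSG00000051314) and Ffar3 (ENSMUSG00000019429) are neighbours on the minus strand of chromosome 7 in GRCm38, at 30818348 to 30823775 and 30854330 to 30856178 in GENCODE release M21, 30554 bases apart. Ffar2 had a TPM of 9.43, 9.66, 9.77, 9.61 and 10.6 in WT replicates 1 to 5 and of 3.65, 5.17, 6.78, 8.16 and 4.11 in RhoB-/- replicates 1 to 5. Every RhoB-/- library lay below the lowest WT library. The means were 9.81 ± 0.456 and 5.57 ± 1.88 TPM (SD, n = 5), 0.568 times the WT level, and the log2 fold change was -0.76 (95% confidence interval -1.14 to -0.39, SE 0.17, limma adjusted p = 0.0098). The spread also differed in size, with a coefficient of variation of 4.65% in WT and 33.7% in RhoB-/- libraries, a difference that was not tested. Without RhoB-/- replicate 5 the log2 fold change of Ffar2 was -0.68 (limma adjusted p = 0.0292).

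Ffar3 was far below its neighbour, with a TPM of 0.81, 0.17, 0.33, 0.06 and 0.16 in WT and of 0.31, 0.67, 0.53, 1.23 and 0.55 in RhoB-/- replicates 1 to 5. WT replicates 1 and 3 lay above the lowest RhoB-/- library, so the groups overlapped. Ffar3 was below the filter and its difference of 0.35 on the log2(TPM + 1) scale did not pass a two-sided exact permutation test (p = 0.111), though it did without WT replicate 1 (difference 0.47, exact permutation p = 0.0238). Without RhoB-/- replicate 5 the difference was 0.37 (exact permutation p = 0.127). Hcar2 (ENSMUSG00000045502, a single-exon gene at 123863570 to 123865499 on the minus strand of chromosome 5) had a TPM of 0.14, 0.39, 0.47, 0.23 and 0.59 in WT and of 0.75, 0.19, 0.10, 0.39 and 0.16 in RhoB-/- replicates 1 to 5. Its groups overlapped over most of their range, with a difference of -0.06 on the log2(TPM + 1) scale (exact permutation p = 0.698), and of -0.02 without RhoB-/- replicate 5 (exact permutation p = 0.905). At levels below 1 TPM and an unknown depth, neither result shows that a receptor was unchanged.

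Among markers of enteroendocrine cells, in which SCFA receptors are best known, 6 fell in the RhoB-/- libraries. Of the 14 genes listed 12 were tested with limma, and 6 fell and 0 rose, where 13.5% and 7.73% of all tested genes did. An unadjusted p below 0.05 in either direction was reached by 8, and the median log2 fold change was -0.67 against -0.13 over all tested genes. Their summed TPM was 514 to 694 in WT and 285 to 470 in RhoB-/- libraries, and no listed marker was at 0 in every library. Insl5, a hormone of colonic L cells, fell from 41.9 to 8.68 TPM (log2 fold change -2.18, limma adjusted p = 0.000484). Peptide YY (Pyy) fell from 197 to 80.3 TPM (log2 fold change -1.26, limma adjusted p = 0.00266) and proglucagon (Gcg) from 54.7 to 27.6 TPM (log2 fold change -1.04, limma adjusted p = 0.00831). Of the 6 calls, that on Chga held in 5 of the 10 fits that left out a library. It did not hold with each library centred on its median (limma adjusted p = 0.0739). Other markers did not follow, with secretin (Sct) at 66.4 TPM in WT and 87.9 in RhoB-/-, neurotensin (Nts) at 13.9 and 16.1 and the tachykinin gene Tac1 at 6.29 and 9.02, none of which passed the test. Within libraries the log2 ratio of Ffar2 (TPM + 1 in each) differed between RhoB-/- and WT by -0.07 to the granule protein gene Chga, by 0.49 to Pyy and by 0.27 to Gcg. These comparisons were chosen after the values were seen and are given without a test. Chga, Pyy and Gcg all fell, and such a ratio depends on the marker. Insl5 fell by more than Ffar2 (log2 fold changes -2.18 and -0.76), while Sct, Nts and Tac1 did not fall (0.33, 0.18 and 0.17). In bulk RNA fewer cells of a type and less RNA per cell cannot be told apart, here and for all levels that follow.

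Leukocyte markers moved the other way. Of 12 listed, 7 reached the filter, in part through their RhoB-/- levels, and rose, where 7.73% of all tested genes rose. As the filter is on the mean of all 10 libraries, a rise among the markers that pass is in part set by the filter. Cd8a and Cd68 averaged only 0.832 and 0.988 TPM in WT libraries. The sums over all 12 listed were 10.9 to 19.9 TPM in WT and 58.5 to 69.0 TPM in RhoB-/- libraries. Gzma of cytotoxic lymphocytes rose from 4.23 to 24.0 TPM and the leukocyte antigen Ptprc from 1.97 to 5.92 TPM. Of 8 neutrophil markers Ly6g alone passed the filter and rose from 21.2 to 71.1 TPM (limma adjusted p = 0.000522), Mpo and Elane were at 0 in all libraries, and the sums were 11.9 to 33.8 and 54.4 to 108 TPM. These sums were mostly Ly6g, as no other listed neutrophil marker averaged above 1.95 TPM in either genotype. S100a8 and S100a9 were at 0 in every WT library. The part of these cell types in the values of Ffar2 and Slc16a3 was not tested.

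**Figure D2:**
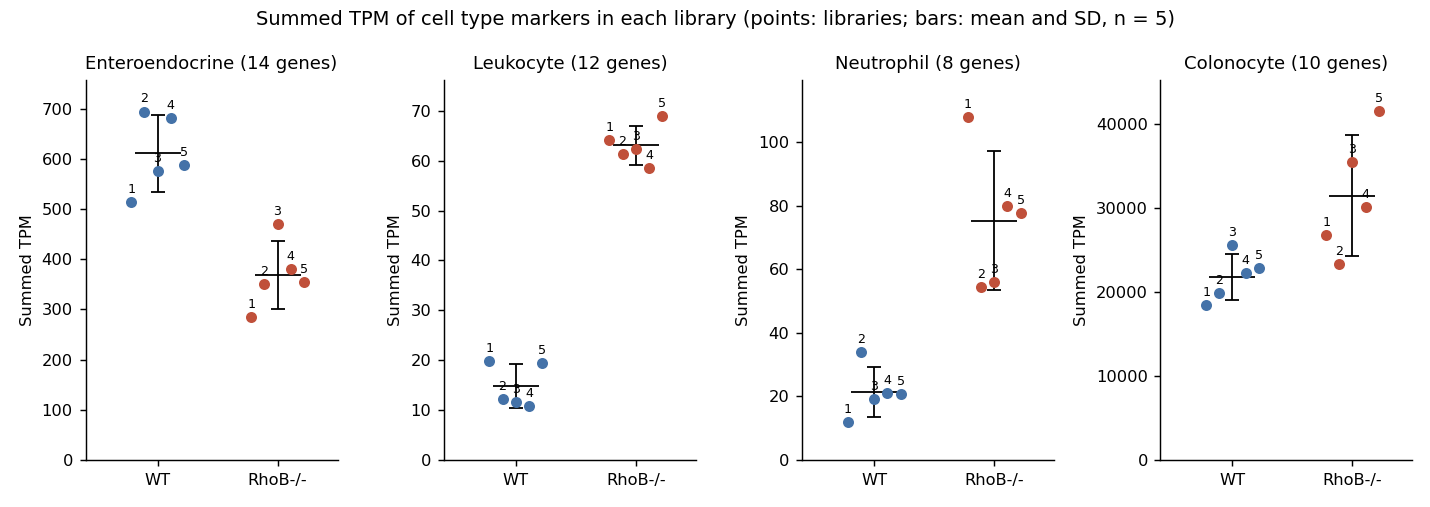
Summed TPM of the enteroendocrine, leukocyte, neutrophil and colonocyte marker lists (linear axes from 0) in the 5 WT and 5 RhoB-/- libraries, with points for libraries and bars for mean and SD (n = 5). The enteroendocrine sums lie at 514 to 694 in WT and 285 to 470 in RhoB-/- libraries, and the leukocyte sums at 10.9 to 19.9 and 58.5 to 69.0, without overlap in either case. The neutrophil sums are mostly Ly6g. The colonocyte sums are mostly Car1 on average, and the genotypes overlap for them.

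Among the transporters, Slc5a8 (ENSMUSG00000020062, 15 exons, plus strand of chromosome 10 from 88885992 to 88929515) was abundant in both genotypes and above 93.5% of the tested genes in WT libraries. Its TPM was 114, 155, 116, 119 and 125 in WT and 96.5, 88.9, 86.8, 75.3 and 98.8 in RhoB-/- replicates 1 to 5. The highest RhoB-/- library was below the lowest WT library, and WT replicate 2 stood above the other 4. The means were 126 ± 16.9 and 89.3 ± 9.31 TPM (SD, n = 5), 0.71 times the WT level, with a log2 fold change of -0.49 (95% confidence interval -0.74 to -0.23, SE 0.12, limma adjusted p = 0.0132). Without RhoB-/- replicate 5 it was -0.52 (limma adjusted p = 0.0182).

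Slc5a8 is a gene of surface colonocytes, and the colonocyte markers did not fall with it. Of 10 listed and tested with limma, 5 rose and 0 fell, where 7.73% and 13.5% of all tested genes did. At an unadjusted p below 0.05 the count was also 5. The sums overlapped, at 18500 to 25600 TPM in WT and 23300 to 41600 TPM in RhoB-/- libraries. Car1 made up most of these sums on average (12800 TPM in WT, 17200 in RhoB-/-) and did not pass (limma adjusted p = 0.203). Slc26a3, Cdh1, Epcam and Krt8 did not pass either. The water channel Aqp8 rose from 177 to 480 TPM (limma adjusted p = 0.0103) and carbonic anhydrase 4 (Car4) from 407 to 857 TPM (limma adjusted p = 0.00549). The log2 ratio of Slc5a8 to Car4, chosen after the values were seen, was -1.64 ± 0.37 in WT and -3.23 ± 0.37 in RhoB-/- libraries (SD, n = 5). That of Slc5a8 to the butyrate-activating enzyme gene Acsm3, chosen likewise, moved the other way, from 0.62 ± 0.10 to 1.22 ± 0.48. Both ratios follow Car4 (log2 fold change 1.10) and Acsm3 (-1.08) more than Slc5a8 (-0.49).

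Slc16a1 (ENSMUSG00000032902, 5 exons, plus strand of chromosome 3 from 104638668 to 104658462) stood close to Slc5a8, with a TPM of 94.1, 128, 111, 128 and 106 in WT and of 92.0, 69.9, 114, 81.2 and 125 in RhoB-/- replicates 1 to 5. RhoB-/- replicates 3 and 5 lay within the WT range and the other 3 below it. The means were 113 ± 14.6 and 96.4 ± 22.8 TPM (SD, n = 5), with a log2 fold change of -0.25 (95% confidence interval -0.61 to 0.10, SE 0.16) that did not pass the test (limma adjusted p = 0.275), nor did the -0.35 without RhoB-/- replicate 5 (limma adjusted p = 0.139). After quantile normalization it was -0.32 and passed (limma adjusted p = 0.0279). The sense-intronic genes Gm43581 and Gm43585 overlap Slc16a1 in the annotation, and how shared reads were divided is not given in the sources used here.

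Slc16a3 (ENSMUSG00000025161, plus strand of chromosome 11 from 120948480 to 120960868, 8 annotated transcripts) was low in WT IECs and changed the most of the 7 genes. Its TPM was 1.61, 0.91, 1.99, 0.75 and 2.43 in WT and 8.65, 4.02, 4.94, 6.13 and 10.03 in RhoB-/- replicates 1 to 5. The lowest RhoB-/- library exceeded the highest WT library, and the values spread more than 2-fold within each genotype. The means were 1.54 ± 0.711 and 6.75 ± 2.52 TPM (SD, n = 5), 4.39 times the WT level, and the log2 fold change on the log2(TPM + 1) scale was 1.60 (95% confidence interval 1.05 to 2.14, SE 0.25, limma adjusted p = 0.00131). RhoB-/- replicate 5 held the highest value, and without it the mean was 5.94 TPM and the log2 fold change 1.45 (limma adjusted p = 0.00449). The log2 ratio of Slc16a3 to Ptprc, chosen after the values were seen, was -0.25 ± 0.44 in WT and 0.16 ± 0.35 in RhoB-/- libraries, and that to the T cell gene Cd3e -0.03 ± 0.53 and 0.74 ± 0.23. The direction depends on the marker. Of the 7 tested leukocyte markers, Gzma and Gzmb rose by more than Slc16a3 (log2 fold changes 2.32 and 2.11). The rest of the 7 rose by less, by 0.83 to 1.19.

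Bsg (ENSMUSG00000023175, plus strand of chromosome 10 from 79704491 to 79711969) was the highest of the 7 genes, above 98.9% of the tested genes in WT. Its TPM was 712, 890, 919, 873 and 856 in WT and 848, 826, 1057, 980 and 1092 in RhoB-/- replicates 1 to 5. Replicates 3, 4 and 5 of RhoB-/- exceeded every WT library and the other 2 lay within the WT range. The means were 850 ± 80.6 and 960 ± 120 TPM (SD, n = 5), with a log2 fold change of 0.17 (95% confidence interval -0.09 to 0.44, SE 0.12) that did not pass the test (limma adjusted p = 0.328), nor did the 0.12 without RhoB-/- replicate 5 (limma adjusted p = 0.509). With each library centred on its median it was 0.29 and passed (limma adjusted p = 0.0243).

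**Figure D3:**
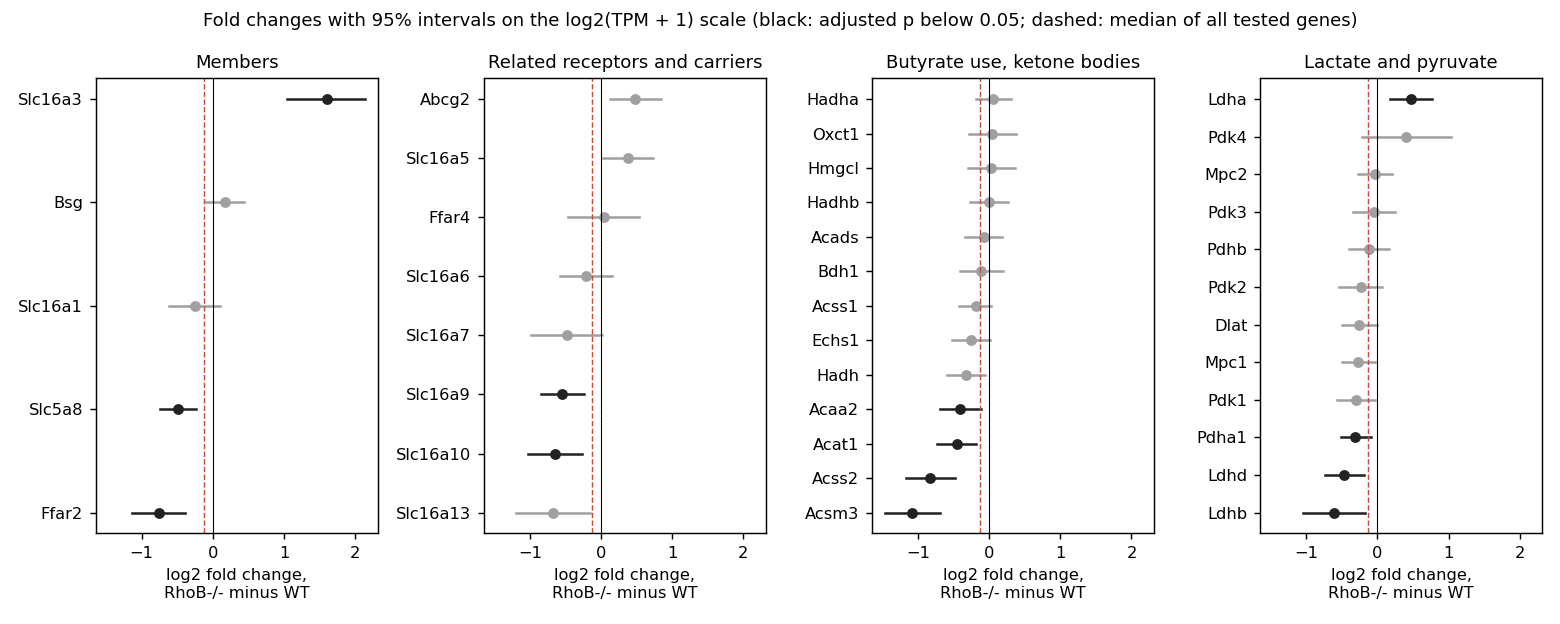
Log2 fold change (RhoB-/- minus WT, log2(TPM + 1) scale) of the tested members and of tested genes for related carriers, butyrate use and lactate handling, with 95% confidence intervals, black for an adjusted p below 0.05 and a dashed line at the median of all tested genes. Ffar2 and Slc5a8 lie below 0 and Slc16a3 lies at 1.60, while the intervals of Slc16a1 and Bsg include 0.

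Because TPM is a share of each library, 4 log2 ratios between the transporters, with 1 added to each TPM, were compared within libraries, where the scaling of a library largely cancels. The log2 ratio of Slc16a1 to its escort Bsg was -2.90 ± 0.12 in WT and -3.33 ± 0.22 in RhoB-/- libraries (SD, n = 5), a difference of -0.43. Slc16a3 relative to Bsg was at -8.43 ± 0.46 and -7.01 ± 0.45, a difference of 1.42. Slc16a3 relative to Slc16a1 was at -5.53 ± 0.56 and -3.68 ± 0.39, a difference of 1.85. For these 3 ratios the genotypes did not overlap, and each reached the smallest value that a two-sided exact permutation test over all labelings of the libraries allows (p = 0.00794, adjusted over the 4 ratios p = 0.0106). The ratios with Slc16a3 carry its own rise (log2 fold change 1.60) and are not results separate from it. Slc5a8 relative to Slc16a1 was 0.15 ± 0.17 in WT and -0.08 ± 0.30 in RhoB-/- libraries, a difference of -0.23 that did not pass (exact permutation p = 0.19, adjusted p = 0.19). Without RhoB-/- replicate 2 that ratio differed by -0.34 (exact permutation, adjusted p = 0.0476).

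**Figure D4:**
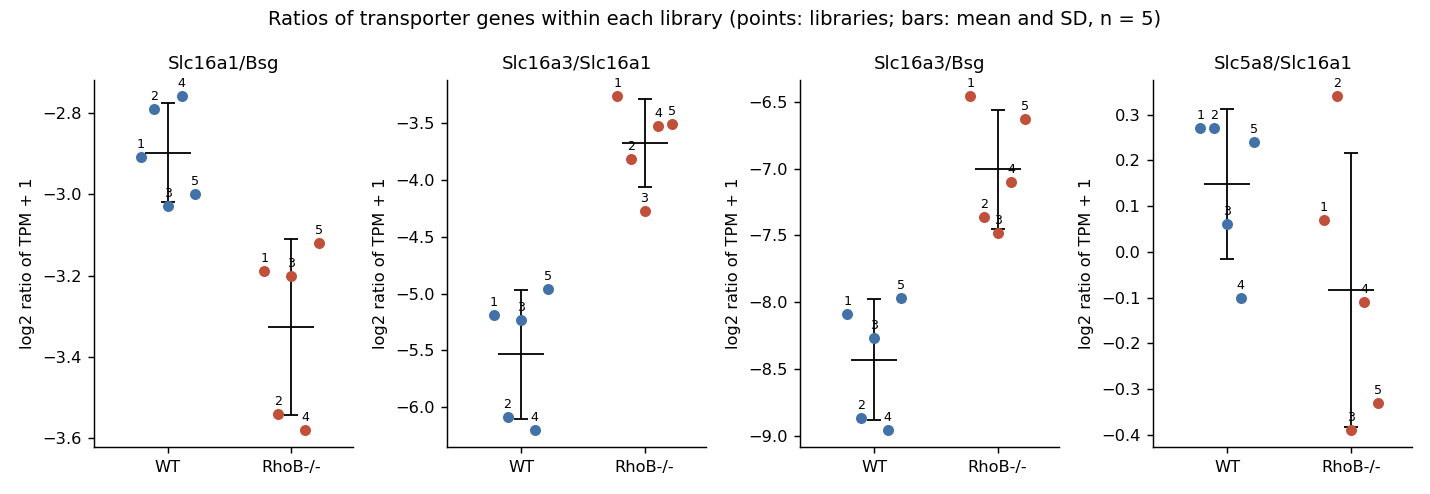
Log2 ratios of TPM + 1 between pairs of transporter genes in each of the 5 WT and 5 RhoB-/- libraries, with points for libraries and bars for mean and SD (n = 5). Slc16a1/Bsg is lower and Slc16a3/Bsg and Slc16a3/Slc16a1 are higher in RhoB-/- libraries without overlap, whereas Slc5a8/Slc16a1 overlaps.

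The order of the mean TPM levels was Bsg, Slc5a8, Slc16a1, Ffar2, Slc16a3, Hcar2 and Ffar3 in WT IECs. In RhoB-/- IECs it was Bsg, Slc16a1, Slc5a8, Slc16a3, Ffar2, Ffar3 and Hcar2. The neighbours Slc5a8 and Slc16a1 did not keep one order within either genotype, Slc5a8 being the higher in 4 of 5 WT and in 2 of 5 RhoB-/- libraries. Ffar2 exceeded Slc16a3 in 5 of 5 WT libraries and in 3 of 5 RhoB-/- libraries. The exceptions, RhoB-/- replicates 1 and 5, had the lowest Ffar2 and the highest Slc16a3 of all libraries. Ffar3 exceeded Hcar2 in 1 WT and 4 RhoB-/- libraries, both at under 1.3 TPM.

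Among related receptors and carriers outside the 7 members, 2 carriers fell. Of 18 listed, 16 were in the table under the listed symbol and 8 were tested, of which 0 rose and 2 fell by limma, where 7.73% and 13.5% of all tested genes did, with a median log2 fold change of -0.35, and 5 had an unadjusted p below 0.05 in either direction. Slc16a10, a carrier of aromatic amino acids, had 2.20, 2.93, 1.67, 3.97 and 2.93 TPM in WT and 1.17, 1.52, 1.42, 1.25 and 1.32 TPM in RhoB-/- libraries (log2 fold change -0.65, limma adjusted p = 0.0225). Slc16a9, another member of the monocarboxylate transporter family, fell from 8.70 to 5.67 TPM (log2 fold change -0.55, limma adjusted p = 0.0183). The gene listed with the highest mean over the 10 libraries was Abcg2, an efflux pump, with means of 64.3 TPM (WT) and 90.6 TPM (RhoB-/-) (log2 fold change 0.48, limma adjusted p = 0.0601). The count of genes that fell was 1 without WT replicate 4 or without RhoB-/- replicate 1.

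Olfr78, an olfactory receptor that responds to acetate and propionate, was below the filter and is named after its values were seen. It had a TPM of 1.05, 1.69, 2.09, 1.35 and 1.83 in WT and of 0.41, 0.36, 0.28, 0.32 and 0.31 in RhoB-/- replicates 1 to 5. All RhoB-/- libraries lay below all WT libraries (means 1.60 and 0.336 TPM, exact permutation p = 0.00794). The sodium-coupled carrier Slc5a12 was listed at 0 in every library.

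The genes that activate and oxidize butyrate and make ketone bodies gave 4 that fell and 0 that rose among 14 tested of 18 listed, with a median log2 fold change of -0.23 and 5 at an unadjusted limma p below 0.05 in either direction. Among all tested genes 13.5% fell and 7.73% rose. Acsm3, an acyl-CoA synthetase that activates butyrate, had 72.6, 104, 68.2, 83.8 and 79.9 TPM in WT and 37.1, 51.0, 32.7, 46.3 and 26.3 TPM in RhoB-/- replicates 1 to 5. The groups did not overlap, and the log2 fold change was -1.08 (SE 0.18, limma adjusted p = 0.00178). Acss2, which activates acetate in the cytosol and nucleus, had 41.6, 75.5, 51.7, 59.3 and 57.1 TPM in WT and 24.4, 32.6, 37.7, 33.6 and 29.0 TPM in RhoB-/- libraries, again without overlap (log2 fold change -0.83, SE 0.16, limma adjusted p = 0.00455). The thiolases Acat1 (109 to 80.1 TPM, limma adjusted p = 0.0256) and Acaa2 (123 to 92.5 TPM, limma adjusted p = 0.0463) also fell. Leaving out a library gave a count of 2 to 6, with 2 without WT replicate 2 or 4 and without RhoB-/- replicate 1 or 5. Acsm3 and Acss2 fell in all 10 fits that left out a library, Acat1 in 6 and Acaa2 in 2. The call on Acaa2 also did not hold with each library centred on its median (limma adjusted p = 0.0505).

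Lactate and pyruvate genes, which share the carriers Slc16a1 and Slc16a3, moved in both directions. Of 12 listed and tested, 1 rose and 3 fell, where 7.73% and 13.5% of all tested genes did. Their median log2 fold change was -0.24. Ldha, the main subunit of lactate dehydrogenase in glycolytic cells, had 688, 830, 918, 729 and 860 TPM in WT and 1056, 906, 1231, 1084 and 1332 TPM in RhoB-/- replicates 1 to 5, overlapping at a single library of each genotype (log2 fold change 0.47, SE 0.13, limma adjusted p = 0.0271). Ldhb, the other subunit, fell from 5.08 to 3.02 TPM (log2 fold change -0.61, limma adjusted p = 0.0491), Ldhd, which oxidizes D-lactate, from 3.59 to 2.32 TPM (limma adjusted p = 0.0244), and Pdha1 of pyruvate dehydrogenase from 125 to 101 TPM (limma adjusted p = 0.0441). None of the 4 calls held in all 10 fits that left out a library, with counts of 0 to 1 rising and 0 to 4 falling. The ratio of Slc16a3 to Ldha, chosen after the values were seen, was higher in RhoB-/- libraries by 1.12 on the log2 scale.

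The G proteins and arrestins through which Ffar2 and Ffar3 signal gave 2 that rose and 1 that fell of 11 tested. The shares of all tested genes were 7.73% and 13.5%. The median log2 fold change of the 11 was 0.22. The beta subunit Gnb1 rose from 162 to 229 TPM (log2 fold change 0.49, limma adjusted p = 0.0136) and the inhibitory alpha subunit Gnai2 from 114 to 150 TPM (0.38, limma adjusted p = 0.0398). Gnai1, a scarcer inhibitory alpha subunit, fell from 2.46 to 1.37 TPM (log2 fold change -0.55, limma adjusted p = 0.0206), and Gng5, a gamma subunit and the most abundant of the list, was at 341 and 398 TPM (limma adjusted p = 0.195). With each library centred on its median 7 of the 11 rose and 0 fell. Histone deacetylases, several of which butyrate inhibits, gave 0 that rose and 1 that fell of 9 tested, with 2 at an unadjusted limma p below 0.05 in either direction. Of all tested genes 7.73% rose and 13.5% fell, so 1 fall among 9 is near that share. Hdac2 fell from 32.7 to 23.5 TPM (log2 fold change -0.49, limma adjusted p = 0.0319), and Hdac1, the most abundant, was at 128 and 118 TPM (limma adjusted p = 0.546). The calls on Gnai2 and Hdac2 each held in 2 of the 10 fits that left out a library.

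The tested genes averaging 10 TPM or more whose profiles over the 10 libraries were most like those of the 3 changed members were found by the root mean square (RMS) difference of mean-centred log2(TPM + 1). For Ffar2 they were Creb3l4 (RMS difference 0.133, 23.8 TPM in WT and 14.9 in RhoB-/- libraries), 2410002F23Rik (0.149) and Maged1 (0.16), against a standard deviation of 0.463 for the Ffar2 profile itself. For Slc5a8 they were Appl2 (0.0944), Ttc38 (0.105) and Pygb, the brain form of glycogen phosphorylase (0.105), against 0.286. For Slc16a3 they were the kinase gene Sgk2 (0.228), the complement regulator Cd55 (0.231) and the guanine deaminase Gda (0.239), against 0.892, with Cd55 averaging 15.5 TPM in WT and 49.2 in RhoB-/- libraries. These are the nearest of 7010 or 7011 profiles and share the libraries and the genotype difference, so no p is given.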

How the data were processed

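IECs of 5 WT and 5 RhoB-/- mice were analysed, with group and replicate number taken from the labels. Per the study's methods the authors used SeqPrep and Sickle for read trimming, HISAT2 for alignment, StringTie for transcript assembly and RSEM for gene levels. The deposited values are TPM, rounded to 2 decimals and used as given. The submitters' processing notes name the build GRCm38.p6 and also edgeR. Tool versions and the annotation release are not given in the sources used here. TPM is a share of each library and keeps no depth, so counting error is unknown and a gene that takes much of a library lowers the rest. Errors are SD between libraries.

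Genes averaging 1 TPM or more were fitted on the log2(TPM + 1) scale with limma 3.58.1 in R 4.3.3, with moderated variances that follow the mean level (eBayes, trend). A gene was called at a Benjamini-Hochberg adjusted p below 0.05 over all tested genes. Fold changes are on the log2(TPM + 1) scale and understate changes of low genes. Genes below the filter and within-library ratios were compared by two-sided exact permutation over all labelings, with 0.00794 as the smallest p. The procedure was tested on simulated data. Positions and exons are from GENCODE M21, in which 55227 of the 55487 identifiers were found.

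The 7 members and all lists were chosen with earlier results of these data known. Named genes were all members, the called members of each list (up to 4 in each direction) and its most abundant gene, the 3 profiles most like each called member, and Rhob. By this rule 1 further gene was chosen that is not reported here. Any other gene was named after its values were seen. The shared replicate numbers mark different mice. Alternatives were other pseudocounts, filters and scalings, a replicate block, each library left out and, added after seeing the data, fold changes of mean TPM. All 10 libraries entered the main test.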

Additional observations from a re-analysis of the deposited data

Results flagged for a closer look

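A single library stood apart from its group in 2 of the 24 sets of 5 libraries examined, where chance would give about 1 in 20. Slc5a8 had a TPM of 154.86 in WT replicate 2, while the other WT libraries lay between 113.61 and 125.39. Without that library the log2 fold change of Slc5a8 was -0.41 (limma adjusted p = 0.0248), and the genotypes did not overlap with or without it. Rhob, the deleted gene, had a TPM of 110.87 in the library labelled RhoB-/- replicate 5, while the other RhoB-/- libraries lay between 0.09 and 0.57. That library held the highest Slc16a3 (10.03 TPM) and the highest Slc5a8 (98.82 TPM) of its group and the second-lowest Ffar2 (4.11 TPM).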

How the results depend on the processing

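Over all alternatives run, Ffar2, Slc5a8 and Slc16a3 kept their direction. The number of genes that rose was 1587 after quantile normalization and 2004 with each library centred on its median, against 995, and the number that fell was 1059 with a replicate block, 3648 without mitochondrial genes and 1072 at an unadjusted p below 0.05 with a fold above 1.5, against 1734. Genes that fell numbered 1975 after quantile normalization and 1608 after centring, which moved the median log2 fold change from -0.13 to -0.01. Leaving out each library gave 860 to 2929 genes that fell, moving by over 1.5 times without WT replicate 2 or 4 or RhoB-/- replicate 1, 3 or 5. Members that rose were 2 after quantile normalization and 2 after centring, as Bsg passed (log2 fold change 0.21 and 0.29), and members that fell were 1 at an unadjusted p with a fold above 1.5, since Slc5a8 changed by less. Slc16a1 passed after quantile normalization (-0.32). Hcar2 turned to 0.05 after centring (exact permutation p = 0.738). As a fold of mean TPM the log2 change was 2.13 for Slc16a3 and 1.10 for Ffar3, without a pseudocount. Leaving out a library gave 0.24 to 0.47 for Ffar3 and -0.34 to -0.16 for the ratio of Slc5a8 to Slc16a1. Same-numbered libraries did not deviate together (correlations -0.0874 to 0.072), each number being shared by different mice. Under the replicate block the ratios Slc16a1/Bsg, Slc16a3/Bsg and Slc16a3/Slc16a1 differed by -0.43, 1.42 and 1.85 with an adjusted p of 0.0833 from exact sign flips, which cannot go below 0.0625 with 5 pairs, and limma adjusted p values were over 0.05 for Slc16a10 (0.0539), Gnai1 (0.0632), Acat1 (0.0602), Gnai2 (0.0925), Hdac2 (0.0693), Ldhb (0.0801), Ldhd (0.0705), Pdha1 (0.112), Mcm2 (0.0617) and Mcm5 (0.0632), while the calls on Ffar2, Slc5a8 and Slc16a3 were kept. Depth is unknown, so a level below 1 TPM has no stated precision.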

Other observations

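Goblet cell and proliferation markers also differed between the genotypes. Over all tested genes 7.73% rose and 13.5% fell, the shares to set beside each count below. Of 8 goblet cell markers 3 rose and 0 fell, with sums of 12300 to 14000 TPM in WT and 15300 to 18300 TPM in RhoB-/- libraries. Retnlb, an antimicrobial goblet cell product, averaged 132 ± 94.7 TPM (WT) and 1870 ± 680 TPM (RhoB-/-; SD, n = 5). Agr2, which helps mucin folding, lay the other way at 2230 and 1540 TPM (limma adjusted p = 0.0523), and the mucin Muc2 was at 4980 and 4290 TPM and did not pass. Of 10 proliferation markers 0 rose and 4 fell, among them the cell cycle marker Mki67 from 36.5 to 22.1 TPM (limma adjusted p = 0.0307). The call on Mki67 held in 3 of the 10 fits that left out a library, those on the replication genes Mcm2, Mcm5 and Mcm6 in 3, 2 and 5, and none of the 4 held without the filter on low TPM (limma adjusted p of 0.0649 to 0.102). Of 8 stromal and endothelial markers 2 were tested and 1, Dcn of fibroblasts, rose from 2.02 to 9.74 TPM (6.04 without RhoB-/- replicate 5, which held 24.5), with the call held in 8 of the 10 fits that left out a library and sums of 4.18 to 5.31 TPM in WT and 6.51 to 36.4 TPM in RhoB-/- libraries. Of 8 smooth muscle and erythrocyte markers 5 were tested with limma and 0 passed, with 0 at an unadjusted p below 0.05 and sums of 215 to 859 and 55.6 to 899 TPM, made up mostly of haemoglobin genes.

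Ffar2 and Ffar3 have 12 other protein-coding genes within 100000 bases on chromosome 7, of which 3 were tested. Hamp, the gene of the iron hormone hepcidin, was listed at 0 in all WT libraries and at 1.96 to 5.68 TPM in RhoB-/- libraries. Tmem147 (62.3 TPM at the WT median and 47.5 at the RhoB-/- median, limma adjusted p = 0.133) and Usf2 (31.3 and 30.8 TPM, limma adjusted p = 0.915) did not pass. Cd22, a receptor of B cells next to Ffar1, was below the filter, with means of 0.018 TPM (WT) and 1.15 TPM (RhoB-/-) and overlapping groups (exact permutation p = 0.143).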
